A study of Mus musculus with 16 samples.

Results

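Neutrophil granule and alarmin genes were followed in sorted cells of the mouse olfactory mucosa. The 10 genes were the specific granule genes Lcn2, Ngp, Camp, Ltf and Mmp8, the gelatinase gene Mmp9, the primary granule protease gene Elane, the alarmin genes S100a8 and S100a9, and Retnlg. They were chosen with earlier results of these data known and looked up by platform gene symbol. Each matched 1 probe set, which gave 10 of the 19572 probe sets with 1 gene symbol on the Clariom S array. The mice carried the S100a5-tauGFP reporter, whose green fluorescent protein follows the gene of S100a5, a calcium-binding protein whose expression in olfactory neurons depends on their activity. In all, 24 mice of both sexes, 7 to 12 weeks old, sat singly for 40 h in chambers with an air flow of 3.1 L/min. From 26 h on, air pulses of 10 s came every 20 min and carried either citrus accord at 100% or, as vehicle, filtered air alone. Dissociated mucosa cells were then separated by fluorescence-activated sorting. The 4 groups were GFP-positive and GFP-negative cells of citrus mice and the same 2 gates of vehicle mice, with 4 arrays each, and every array held the cells of 3 mice. Reporter mice supplied all groups, and no mice without the reporter and no unsorted mucosa were among the arrays.

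Neutrophils fill their granules in a sequence while they mature in the bone marrow: primary granules with serine proteases and myeloperoxidase at the promyelocyte stage, then specific granules, then gelatinase granules. The transcription factors PU.1 and C/EBP, C/EBP epsilon above all for the specific granule proteins, drive these genes. S100A8 and S100A9 pair in the cytosol as calprotectin, which withholds zinc and manganese from microbes and, once released, acts as an alarmin on pattern recognition receptors. The olfactory mucosa is a neural epithelium over a vascular lamina propria, in which white blood cells are found beside the sensory neurons.

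Values are log2 expression as the authors deposited them. As the background, the 95th percentile of the negative-control probes lay between 8.75 and 9.71 on an array, and their median lay between 4.84 and 5.37. Within a group, r between arrays over all probe sets was 0.985 to 0.992. S100a5, the gene the gate follows, was higher in GFP-positive than in GFP-negative cells by 1.88 ± 0.13 (SE) in citrus and by 1.91 ± 0.13 in vehicle, with adjusted p = 8.64e-09 and 8.38e-09. Omp, the olfactory marker protein of mature sensory neurons, did not pass the threshold. It averaged 19.36 ± 0.07 (SD, n = 4) in citrus GFP-positive and 19.17 ± 0.18 in citrus GFP-negative cells, against 19.37 ± 0.01 and 19.10 ± 0.21 in the same gates of vehicle mice. The mature neuron marker Omp thus lay above background on all 16 arrays, GFP-negative ones included. The number of arrays limits the precision. P-values rest on the spread between arrays within groups, with 1 value per probe set shared by all 4 groups. For the members this includes GFP-positive arrays, most of which lay under background. The 2 gates of a pool of mice entered the fit as separate arrays.

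Promoters of the members are shown first, because the factors that drive granule genes have known core motifs. The RefSeq promoter table used here (GRCm38.p6) gave the upstream 250 bases of 9 of the 10 members, and Mmp9 was not matched in it. The C/EBP core was searched as TTGCNNAA or, on the other strand, TTNNGCAA. It stood in 6 of the 9 windows, those of Lcn2, S100a9, Mmp8, Ngp, Ltf and Retnlg, and in 9.56% of 32851 promoter windows of the same length. The PU.1 core, searched as GAGGAA or TTCCTC, stood in 5 of the 9, those of Lcn2, S100a8, Mmp8, Ltf and Elane, and in 23.3% of all windows. No match of one motif overlapped a match of the other in these windows. Both spellings were picked after several had been viewed, so the shares are descriptions. Printed are the windows of a pair of specific granule genes and of both alarmin genes, 5′ to 3′ on the strand of the gene, with the C/EBP core in capitals. They are chr9:110419558-110419807 on the plus strand for Ngp, chr9:111019042-111019291 on the plus strand for Ltf, chr3:90695722-90695971 on the minus strand for S100a9 and chr3:90668821-90669070 on the plus strand for S100a8.
Ngp: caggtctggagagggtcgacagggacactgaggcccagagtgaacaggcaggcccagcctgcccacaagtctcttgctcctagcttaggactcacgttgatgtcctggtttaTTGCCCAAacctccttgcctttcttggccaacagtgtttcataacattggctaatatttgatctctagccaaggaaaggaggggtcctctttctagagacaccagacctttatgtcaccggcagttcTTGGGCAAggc
Ltf: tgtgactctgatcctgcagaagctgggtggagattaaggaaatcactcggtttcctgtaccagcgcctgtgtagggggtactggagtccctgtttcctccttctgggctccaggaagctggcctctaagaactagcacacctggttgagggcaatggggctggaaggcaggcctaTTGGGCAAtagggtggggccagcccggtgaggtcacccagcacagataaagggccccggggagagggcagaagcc
S100a9: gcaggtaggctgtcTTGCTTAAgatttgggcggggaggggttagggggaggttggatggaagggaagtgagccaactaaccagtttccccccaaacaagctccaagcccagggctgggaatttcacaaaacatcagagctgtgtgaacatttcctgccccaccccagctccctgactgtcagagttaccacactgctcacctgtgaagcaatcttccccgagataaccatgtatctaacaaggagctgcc
S100a8: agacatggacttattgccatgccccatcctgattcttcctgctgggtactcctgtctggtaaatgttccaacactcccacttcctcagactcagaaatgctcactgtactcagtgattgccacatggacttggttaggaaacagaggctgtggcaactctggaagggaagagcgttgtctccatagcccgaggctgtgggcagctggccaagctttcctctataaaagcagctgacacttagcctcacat
Ngp had 2 matches, which began 138 and 11 bases before the start of the gene. The match of Ltf began 75 bases and that of S100a9 began 236 bases before the start. S100a8, which neighbours S100a9 with 0 protein-coding genes between them, had 0 matches to the C/EBP core in this window and 2 to the PU.1 core, 170 and 36 bases before its start. S100a5, the reporter's own gene, lies on the same chromosome 3 with 2 protein-coding genes between it and S100a8. Ngp, Ltf and Camp share chromosome 9, with 8 protein-coding genes between Camp and Ngp and 20 between Ngp and Ltf.

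The first comparison asked what the gate on the reporter separates. All 10 members were lower in GFP-positive than in GFP-negative cells, in citrus and in vehicle, and for none of them did the arrays of the gates overlap. The share of all probe sets without such overlap was not counted. Omp, which did not pass the threshold, also lacked overlap in vehicle. Of all 19572 probe sets, 10.8% were lower and 7.44% higher in GFP-positive cells in citrus, and 9.97% were lower and 9.05% higher in vehicle. The fitted log2 difference had a median of −9.25 over the 10 members in citrus and −9.07 in vehicle, against 0.13 and 0.11 over all probe sets. Adjusted p reached at most 1.63e-07 in citrus and 8.39e-07 in vehicle. Since the members were chosen with earlier results of these data known, these p-values describe them and are no independent test. The gene lists counted below were chosen in the same way. In citrus GFP-positive cells all 10 members stayed under the 95th percentile of the negative controls on all 4 arrays. In vehicle GFP-positive cells 8 of them did. The exceptions were Ngp on 2 of 4 arrays and Lcn2 on 1 of 4. On GFP-negative arrays every member exceeded that level on all 4 arrays of both stimuli. A fitted difference is therefore bounded by background on its GFP-positive side. With GFP-positive values set at that level or above, the median difference was at least 5.62 in citrus and at least 5.34 in vehicle, lower in GFP-positive cells. For single members this bound ran from 2.91 to 9.50 in citrus and from 2.76 to 8.89 in vehicle, or at least 7.5-fold to 724-fold and at least 6.79-fold to 475-fold. The deposited scale can be stretched, so these folds need not equal ratios of mRNA. In sorted cells, fewer cells of a type and less RNA per cell cannot be told apart.

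**Figure D1:**
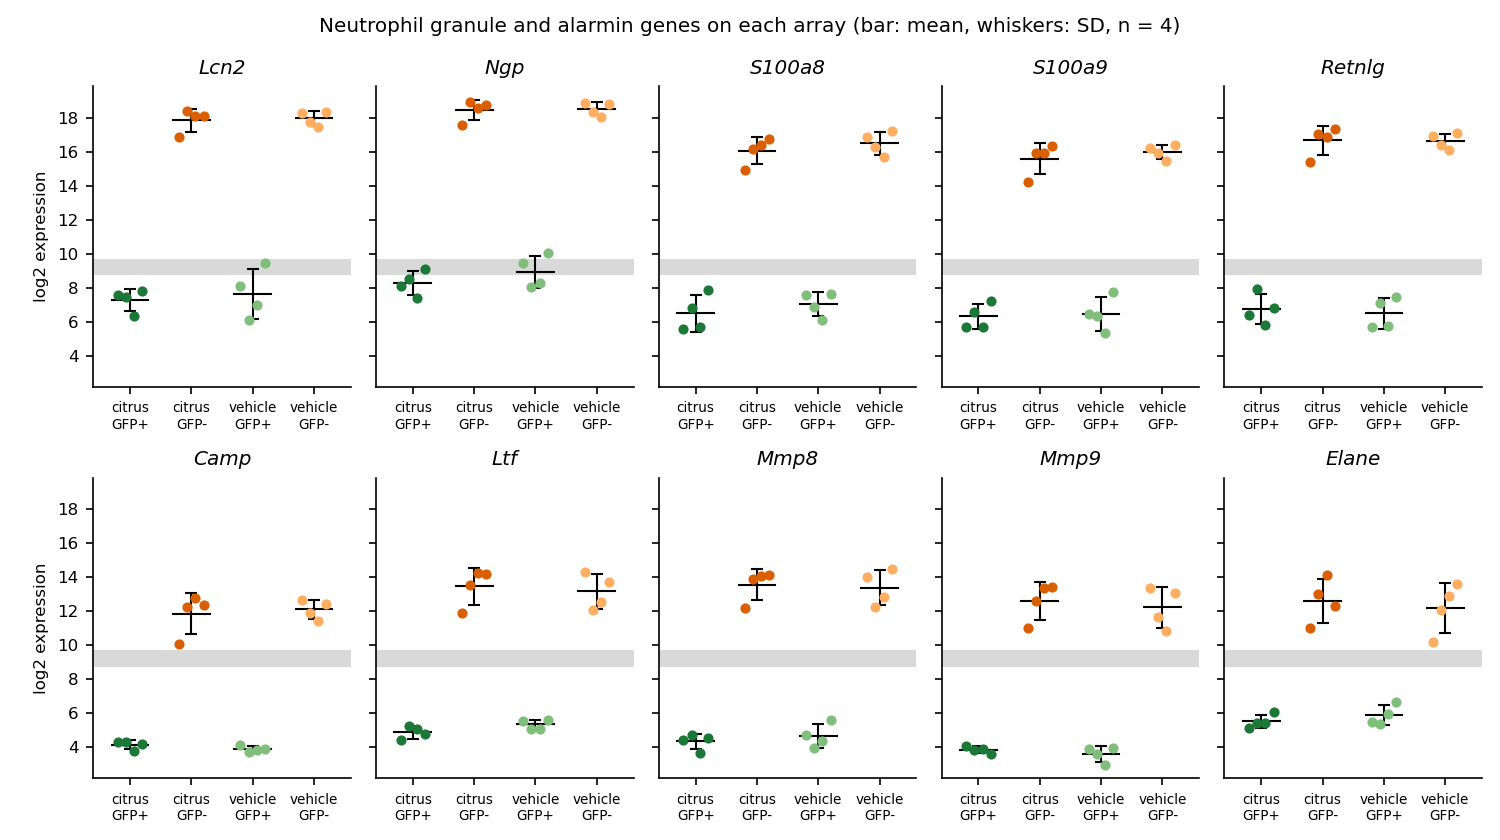
Log2 expression of the 10 members on each of the 16 arrays, 1 panel per gene, with the groups along the horizontal axis. Points are arrays in replicate order, bars the mean, whiskers the SD (n = 4), and the grey band the range of the negative-control 95th percentile (8.75 to 9.71). GFP-positive points lie in or under the band except for Ngp at 10.02 on 1 array, and all GFP-negative points lie above it.

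Among the alarmins, S100a8 read 5.61, 6.82, 5.70 and 7.90 on the citrus GFP-positive arrays and 14.93, 16.17, 16.43 and 16.78 on the citrus GFP-negative arrays. In vehicle it read 7.60, 6.88, 6.14 and 7.64 in GFP-positive cells and 16.89, 16.29, 15.67 and 17.20 in GFP-negative cells. All 8 GFP-positive arrays were thus under background for S100a8, and all 8 GFP-negative arrays were far above it. For S100a8 the fit gave −9.57 ± 0.50 (SE, adjusted p = 3.51e-10) in citrus and −9.45 ± 0.50 (adjusted p = 4.56e-10) in vehicle, at least 7.11 and 7.17 in size. S100a9, which encodes the partner chain in calprotectin, read 5.71, 6.61, 5.73 and 7.23 in citrus GFP-positive cells and 14.24, 15.93, 15.92 and 16.32 in citrus GFP-negative cells. Its vehicle values were 6.44, 6.35, 5.35 and 7.74 in GFP-positive cells and 16.20, 15.92, 15.43 and 16.39 in GFP-negative cells. S100a9 followed the same split as S100a8, with the citrus GFP-negative array 1 lowest in its group for both. It was lower by a fitted −9.28 ± 0.48 in citrus and −9.52 ± 0.48 in vehicle (adjusted p = 3.15e-10 and 2.84e-10), at least 6.64 in size in both.

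The specific granule genes came next. Lcn2 encodes lipocalin-2, which binds bacterial siderophores and so withholds iron. Its values were 7.60, 7.48, 6.36 and 7.81 in citrus GFP-positive cells and 16.85, 18.38, 18.10 and 18.09 in citrus GFP-negative cells. In vehicle GFP-positive cells it had 8.12, 6.09, 6.97 and 9.49, and in vehicle GFP-negative cells 18.30, 17.73, 17.46 and 18.35. The vehicle GFP-positive array 4, at 9.49, was the 1 GFP-positive array on which Lcn2 exceeded background. Between the gates Lcn2 differed by a fitted −10.54 ± 0.54 in citrus and −10.30 ± 0.54 in vehicle (adjusted p = 2.66e-10 and 4.29e-10), at least 8.89 and 8.61 in size. Ngp encodes neutrophilic granule protein, a member of the cystatin superfamily. It had 8.13, 8.53, 7.42 and 9.12 in citrus GFP-positive cells and 17.59, 18.94, 18.59 and 18.73 in citrus GFP-negative cells. Vehicle GFP-positive cells had 9.45, 8.05, 8.29 and 10.02, and vehicle GFP-negative cells 18.88, 18.33, 18.07 and 18.80. The vehicle GFP-positive arrays 1 and 4 carried measurable Ngp signal, and the groups still did not overlap. The fitted difference was −10.16 ± 0.42 in citrus and −9.57 ± 0.42 in vehicle (adjusted p = 3.19e-11 and 6.31e-11), at least 9.50 and 8.89 in size.

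Camp encodes cathelicidin, the precursor of an antimicrobial peptide. It read 4.32, 4.35, 3.79 and 4.22 in citrus GFP-positive cells and 10.07, 12.27, 12.78 and 12.36 in citrus GFP-negative cells. In vehicle it read 4.16, 3.76, 3.87 and 3.90 in GFP-positive cells and 12.68, 11.89, 11.41 and 12.46 in GFP-negative cells. GFP-positive values of Camp lay under the median of the negative controls, so its bound is wide. The fit put Camp at −7.70 ± 0.42 in citrus and −8.19 ± 0.42 in vehicle (adjusted p = 5.6e-10 and 3.35e-10), against a size of at least 2.91 and 2.76. Ltf, the gene of the iron-binding protein lactoferrin, had 4.43, 5.26, 5.08 and 4.78 in citrus GFP-positive cells and 11.90, 13.55, 14.24 and 14.19 in citrus GFP-negative cells. The vehicle values were 5.57, 5.09, 5.12 and 5.64 in GFP-positive cells and 14.33, 12.09, 12.53 and 13.73 in GFP-negative cells. GFP-negative arrays spanned over 2 log2 units for Ltf within either stimulus, and the gates lay further apart than that. The fitted difference was −8.58 ± 0.48 in citrus and −7.82 ± 0.48 in vehicle (adjusted p = 6.89e-10 and 2.46e-09), at least 4.51 and 3.82 in size.

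Mmp8, the gene of neutrophil collagenase, had 4.45, 4.73, 3.70 and 4.54 in citrus GFP-positive cells and 12.21, 13.89, 14.07 and 14.13 in citrus GFP-negative cells. It read 4.74, 3.98, 4.41 and 5.60 in vehicle GFP-positive cells and 13.998, 12.23, 12.82 and 14.47 in vehicle GFP-negative cells. The collagenase gene was lower in every GFP-positive array than in any GFP-negative one, by a fitted −9.22 ± 0.49 in citrus and −8.70 ± 0.49 in vehicle (adjusted p = 3.55e-10 and 8.46e-10). Its bound was at least 4.61 in citrus and at least 4.03 in vehicle. Mmp9 encodes gelatinase B, the enzyme that names the gelatinase granules. It had 4.09, 3.84, 3.92 and 3.63 in citrus GFP-positive cells and 11.03, 12.63, 13.40 and 13.40 in citrus GFP-negative cells. Vehicle GFP-positive cells had 3.92, 3.62, 2.99 and 3.97, and vehicle GFP-negative cells 13.40, 11.68, 10.82 and 13.05. All 8 GFP-positive values of Mmp9 lay under background, and all 8 GFP-negative values lay above it. The gates differed for Mmp9 by a fitted −8.74 ± 0.52 in citrus and −8.61 ± 0.52 in vehicle (adjusted p = 1.43e-09 and 2e-09), at least 3.65 and 2.89 in size.

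Retnlg, which encodes the secreted resistin-like gamma, had 6.43, 7.94, 5.85 and 6.83 in citrus GFP-positive cells and 15.43, 17.04, 16.89 and 17.34 in citrus GFP-negative cells. Its vehicle values were 5.70, 7.09, 5.78 and 7.47 in GFP-positive cells and 16.90, 16.42, 16.13 and 17.08 in GFP-negative cells. Retnlg was lower in GFP-positive cells by a fitted −9.91 ± 0.48 in citrus and −10.13 ± 0.48 in vehicle (adjusted p = 1.53e-10 and 1.25e-10), at least 7.71 and 7.29 in size. Elane encodes neutrophil elastase, a serine protease of primary granules that is transcribed mainly at the promyelocyte stage. It had 5.16, 5.44, 5.44 and 6.09 in citrus GFP-positive cells and 11.01, 13.03, 14.12 and 12.34 in citrus GFP-negative cells. In vehicle GFP-positive cells it read 5.52, 5.41, 5.96 and 6.70, and in vehicle GFP-negative cells 10.21, 12.07, 12.91 and 13.58. Its GFP-negative arrays spread over more than 3 log2 units within either stimulus, yet none came near the GFP-positive ones. For Elane the fit gave −7.09 ± 0.63 in citrus and −6.30 ± 0.63 in vehicle (adjusted p = 1.63e-07 and 8.39e-07), at least 3.66 and 2.85 in size.

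**Figure D2:**
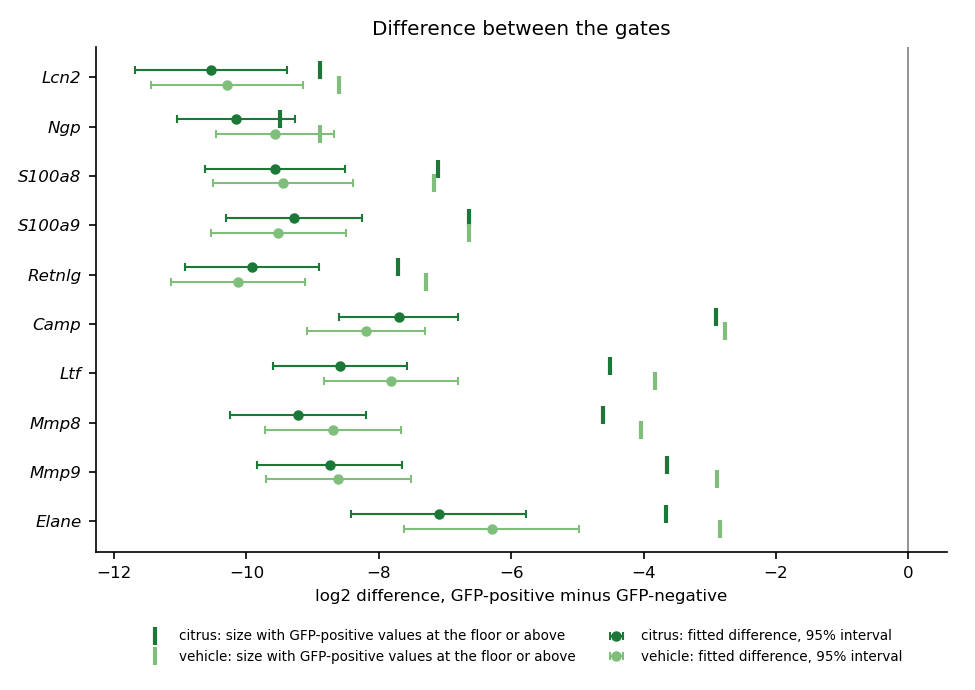
Fitted log2 difference between GFP-positive and GFP-negative cells for each member, in citrus (dark) and vehicle (light), with 95% intervals. Short vertical bars mark the size left when GFP-positive values are set at the negative-control 95th percentile or above. All fitted values lie between −10.54 and −6.30, and the sizes marked by the bars run from 2.76 to 9.50.

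Other genes of the neutrophil programme were lower in GFP-positive cells along with the members. A list of primary granule proteins and other genes of their precursor cells held 9 further genes, of which 8 were lower in citrus and 8 in vehicle, with a median log2 difference of −4.34 and −3.75. Mpo, the gene of myeloperoxidase, averaged 5.62 ± 0.89 in citrus GFP-positive and 14.01 ± 1.21 in citrus GFP-negative cells, against 5.92 ± 0.39 and 13.50 ± 1.29 in the same gates of vehicle mice (SD, n = 4 each). That is at least 5.04 lower in citrus and at least 4.16 lower in vehicle. Serpinb1a, an inhibitor of neutrophil serine proteases that also counts among the protease inhibitors, was at least 2.95 and 2.24 lower. Igsf6, an immunoglobulin superfamily gene of myeloid cells, passed the test with averages of 3.62 in citrus GFP-positive and 9.70 in citrus GFP-negative cells. It exceeded background on 3 citrus and 2 vehicle GFP-negative arrays. Bpi, the bactericidal permeability-increasing protein, did not pass (adjusted p = 0.779 in citrus and 0.196 in vehicle), and it lay under background on all arrays.

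Of 14 other specific and gelatinase granule genes, 13 were lower in citrus and 14 in vehicle, with a median of −4.74 and −4.70. Some of these granule genes lay under background on all 16 arrays, so part of the count rests on such signals. Chil3, a chitinase-like protein of myeloid cells, averaged 6.68 ± 0.95 in citrus GFP-positive and 16.14 ± 0.92 in citrus GFP-negative cells (SD, n = 4 each), which is at least 7.17 lower, and it was at least 6.70 lower in vehicle. Hp, the haemoglobin-binding haptoglobin, was at least 4.45 lower in citrus and 3.83 lower in vehicle. Lyz2, the lysozyme of myeloid cells, was at least 6.70 and 6.03 lower, and it exceeded background on 1 of 4 GFP-positive arrays of either stimulus. Among surface and chemotaxis receptors, 16 of 20 listed genes were tested, of which 16 were lower in citrus and 15 in vehicle (median −4.36 and −4.43). Several of them lay under background on all 16 arrays. Selplg, the P-selectin ligand with which leukocytes roll on vessels, was at least 2.44 lower in citrus and 1.76 lower in vehicle. Mrgpra2b, a receptor of the Mas-related family, was at least 1.48 and 1.11 lower. Itgb2l, an integrin beta 2-like gene, averaged 3.28 in citrus GFP-positive and 10.30 in citrus GFP-negative cells and passed the test in both stimuli. It exceeded background on 3 citrus and 2 vehicle GFP-negative arrays.

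Granulocyte transcription factors were counted next. Of 10 tested, 8 were lower in citrus and 8 in vehicle, with a median of −1.56 and −1.15. Without vehicle pool 4 the count in vehicle was 5. Spi1, which encodes PU.1, averaged 7.29 ± 0.58 in citrus GFP-positive and 15.62 ± 0.84 in citrus GFP-negative cells, against 7.77 ± 0.74 and 15.57 ± 0.30 in vehicle (SD, n = 4 each). It was at least 6.65 lower in citrus and 6.22 lower in vehicle. Runx1 and Klf5 also passed in both stimuli, with Klf5 under background on all arrays and Runx1 above it on 1. Apart from Spi1 and Runx1, all tested factors lay under background on all 16 arrays, so the counts rest mostly on such signals. Cebpe, named after its values were seen because its protein drives specific granule genes, passed as lower in both (adjusted p = 4.49e-05 in citrus and 0.00284 in vehicle) but lay under background on all 16 arrays. Its averages were 3.60 and 5.78 in citrus GFP-positive and GFP-negative cells and 3.83 and 5.28 in the same gates of vehicle mice.

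The S100 family did not move as a block. Of the 14 S100 genes other than the alarmin pair, 4 were lower in GFP-positive cells in both stimuli, and 4 were higher in citrus and 3 in vehicle, with a median of 0.13 and 0.16. S100a11, a widely expressed calcium-binding protein, averaged 6.56 ± 0.33 in citrus GFP-positive and 13.87 ± 0.92 in citrus GFP-negative cells, against 6.74 ± 0.27 and 13.81 ± 0.30 in vehicle (SD, n = 4 each), which is at least 4.91 and 4.46 lower. S100a6 and S100a10 passed as lower while under background on all 16 arrays. S100a5 was the one S100 gene above background on all 16 arrays, and it was higher in GFP-positive cells. The count of higher S100 genes in citrus fell to 2 without citrus pool 2, without citrus pool 4, and with arrays centred on mature neuron markers.

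**Figure D3:**
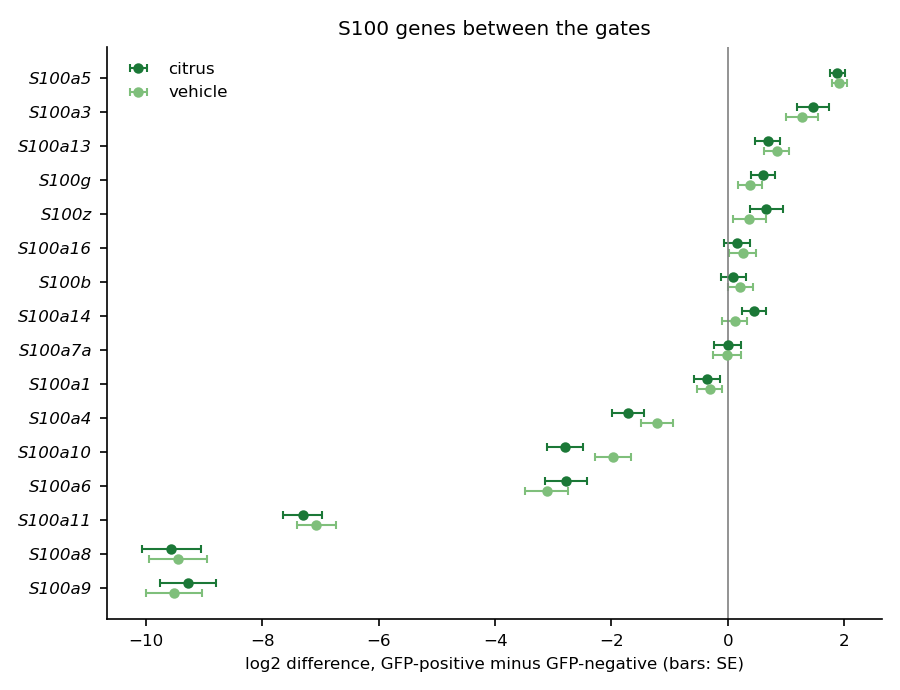
Fitted log2 difference between GFP-positive and GFP-negative cells of 16 S100 genes, in citrus (dark) and vehicle (light), with SE bars. S100a8, S100a9 and S100a11 lie between −9.57 and −7.07, and S100a5 lies at 1.88 and 1.91.

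Receptors and inhibitors of the members' products showed a mixed pattern. Of 10 tested receptors, 3 were lower in GFP-positive cells in either stimulus and 0 higher, with a median of −0.14 in citrus and −0.19 in vehicle. Cap1, named as a resistin receptor in human cells and also a regulator of actin, averaged 13.68 ± 0.13 in citrus GFP-positive and 14.70 ± 0.33 in citrus GFP-negative cells and 13.52 ± 0.17 and 14.44 ± 0.18 in vehicle (SD, n = 4 each), a difference of −1.03 ± 0.17 and −0.93 ± 0.17 (SE, adjusted p = 0.000189 and 0.000612). Lrp1, an endocytic receptor that binds lactoferrin, and Tlr4, a receptor of the S100A8 and S100A9 alarmin, passed as lower but lay under background on all arrays. Centred on mature neuron markers, 7 receptors were lower in citrus and 5 in vehicle. Of 16 tested protease inhibitors, 5 were lower in citrus and 4 in vehicle, and 2 were higher in citrus and 1 in vehicle. Over all probe sets the shares were 10.8% and 9.97% lower and 7.44% and 9.05% higher. Stfa2l1, of the stefin A family of cysteine protease inhibitors, was at least 1.71 lower in citrus and 1.50 lower in vehicle. Stfa2, of the same family, passed in both, with averages of 4.23 in citrus GFP-positive and 8.55 in citrus GFP-negative cells. It exceeded background on 2 citrus GFP-negative arrays and on 0 vehicle arrays, so its call in vehicle rests on values under background. Leaving out citrus pool 2, 3 or 4 or vehicle pool 1 changed the 2 higher inhibitors in citrus to 1. Of 16 chemokines and cytokines that draw or activate neutrophils, 4 were lower in either stimulus, namely Il1b, Ccl3, Tnf and Cxcl12, of which Tnf and Cxcl12 lay under background on all 16 arrays. Without vehicle pool 4 the vehicle count was 2. Il1b, the gene of interleukin-1 beta, averaged 4.27 ± 0.19 in citrus GFP-positive and 9.56 ± 0.96 in citrus GFP-negative cells, and 5.19 ± 0.72 and 9.13 ± 1.23 in vehicle (SD, n = 4 each). Ccl3, a chemokine of myeloid cells, averaged 4.64 and 9.23 in the same gates of citrus mice and 4.89 and 8.59 in vehicle. Il1b exceeded background on 3 citrus and 2 vehicle GFP-negative arrays, and Ccl3 on 2 in either stimulus.

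Markers of other blood cells moved with the members. All 10 pan-leukocyte markers were lower in GFP-positive cells in both stimuli, with a median of −6.18 in citrus and −6.02 in vehicle. Their mean level ranged from 5.24 to 5.67 over citrus GFP-positive arrays and from 10.54 to 12.30 over citrus GFP-negative ones, and from 5.04 to 5.80 and from 11.16 to 12.19 in the same gates of vehicle mice. Arhgdib, a regulator of small GTPases in blood cells, was at least 5.46 lower in citrus and 5.08 lower in vehicle, and Rac2, a GTPase of the neutrophil oxidase, at least 3.07 and 2.38. Laptm5, a lysosomal membrane protein of blood cells, was at least 4.09 and 3.68 lower. Of 12 monocyte and macrophage markers, 11 were lower in either stimulus (mean level 4.55 to 5.53 in citrus GFP-positive and 8.30 to 9.64 in citrus GFP-negative cells, and 4.88 to 5.72 and 8.21 to 9.28 in vehicle). Without vehicle pool 2 that count was 7 in vehicle, and without vehicle pool 4 it was 6. All 6 B cell markers were lower in both. Of 8 T and natural killer cell markers, 6 were lower in citrus and 4 in vehicle, and without vehicle pool 2, 3 or 4 the vehicle count was 2. Of 5 erythroid markers 4, and of 8 mast cell and basophil markers 3, were lower in both. Every T and natural killer cell marker lay under background on all 16 arrays. Of the B cell markers only Cd79a exceeded it, on 4 arrays. Some of the monocyte and macrophage, erythroid, and mast cell and basophil markers called lower also lay under it on all 16. The part of these cell types in the members' difference was not tested.

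Markers of the other cells of the epithelium were also counted. Of all probe sets, 10.8% were lower in GFP-positive cells in citrus and 9.97% in vehicle, and 7.44% and 9.05% were higher. Of 13 markers of Bowman's glands, which secrete the mucus, 6 were lower in citrus and 4 in vehicle (median −0.38 and −0.21). Of 9 markers of sustentacular cells, the supporting cells of the epithelium, 2 were lower in citrus and 1 in vehicle (median −1.66 and −0.89), and without vehicle pool 1 these counts were 6 and 4. Without citrus pool 2, 3 or 4 the citrus count was 1. Of 15 markers of mature sensory neurons, 6 were higher in citrus and 4 in vehicle (median 0.39 and 0.28). Without citrus pool 3 the citrus count was 2, and without citrus pool 4 it was 3. After each array was centred on its own overall median, 15 and 13 mature neuron markers were higher. These lists were described because their cells could be in either gate.

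Within GFP-negative cells the members other than Elane varied together from pool to pool. Elane differed from them in the order of the vehicle arrays. In citrus, array 1 was the lowest of the 4 for all 10 members. The mean level of the pan-leukocyte markers was also lowest there, at 10.54 against 11.88, 12.26 and 12.30 on arrays 2 to 4. In vehicle, array 3 was lowest for 7 members, namely Lcn2, Ngp, S100a8, S100a9, Retnlg, Camp and Mmp9, and array 2 for Ltf and Mmp8. Vehicle array 1 was lowest for Elane, while it was the highest of its group for Ngp, Camp, Ltf and Mmp9. Sustentacular markers averaged 7.56 on that array, against 11.01, 10.95 and 10.37 on vehicle GFP-negative arrays 2 to 4, and pan-leukocyte markers averaged 11.50, 11.16, 11.21 and 12.19 on vehicle arrays 1 to 4. The part of either in the order of the arrays was not tested.

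Correlations over the 8 GFP-negative arrays were computed for 49 pairs, with exact permutation p-values adjusted over the 49. The pairs were chosen after the values had been seen, and the adjustment over the 49 does not cover that choice. The p-values therefore describe the pairs and are no independent test. Among the 36 pairs of the other 9 members Pearson's r ran from 0.74 to 0.99, with a median of 0.876, and the exact permutation test passed for all 36 (adjusted p = 0.0036 to 0.027). By Spearman's rank correlation, from 0.50 to 0.95, 5 of the 36 passed. Lcn2 and Ngp had r = 0.993 and a Spearman correlation of 0.952 (exact p = 0.000149 and 0.00114, adjusted p = 0.00365 and 0.0186), and r = 0.957 without the 2 arrays farthest from the median of Lcn2. Lcn2 and S100a8 had r = 0.888 and a Spearman correlation of 0.619 (exact p = 0.00481 and 0.115, adjusted p = 0.0112 and 0.161), and their r dropped to 0.39 without those 2 arrays. Over the 36 pairs r without the 2 farthest arrays ran from 0.24 to 0.98, so that some of these relations rest on those arrays. Either stimulus holds 4 GFP-negative arrays, too few for a value within it.

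Elane correlated less with the other members than they did with each other. Its r with each of the other 9 ran from 0.17 to 0.37 (Spearman 0.17 to 0.52), and 0 of 9 passed the exact permutation test (adjusted p = 0.423 to 0.679). Vehicle GFP-negative array 1 was the lowest of its group for Elane and the highest for Ngp, Camp, Ltf and Mmp9. The r of Elane with the other members without that array alone was not computed. Elane followed Mpo, the other abundant product of promyelocytes. Mpo read 12.49, 14.44, 15.36 and 13.74 on the citrus GFP-negative arrays and 11.71, 13.55, 13.99 and 14.75 on the vehicle GFP-negative arrays, the same order over the 8 arrays as Elane. Their r was 0.996, with an exact p of 2.48e-05, the smallest that 8 arrays can give, and an adjusted p of 0.00122. Their Spearman correlation was 1.0, and r without the 2 farthest arrays was 0.982. Prtn3, the gene of proteinase 3, and Ctsg, the gene of cathepsin G, are primary granule proteases, and Ms4a3 marks granulocyte and monocyte precursors. Elane had r = 0.892 with Prtn3, 0.902 with Ctsg and 0.899 with Ms4a3 (exact p = 0.00258, 0.00154 and 0.00327, adjusted p = 0.0112 for each). Its Spearman correlation was 0.905, 0.929 and 0.786, with adjusted p = 0.028, 0.0219 and 0.076 by the exact permutation test, so Ms4a3 did not pass by rank. Without the 2 farthest arrays r was 0.874 with Prtn3, 0.855 with Ctsg and 0.737 with Ms4a3. Prtn3, Ctsg and Ms4a3 exceeded background on 1 of 16 arrays each, so their order rests on low signals. The pairs of Elane with these genes were also chosen after the values had been seen, so their p-values are descriptions. A test of the difference between the 2 sets of correlations was not run.

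**Figure D4:**
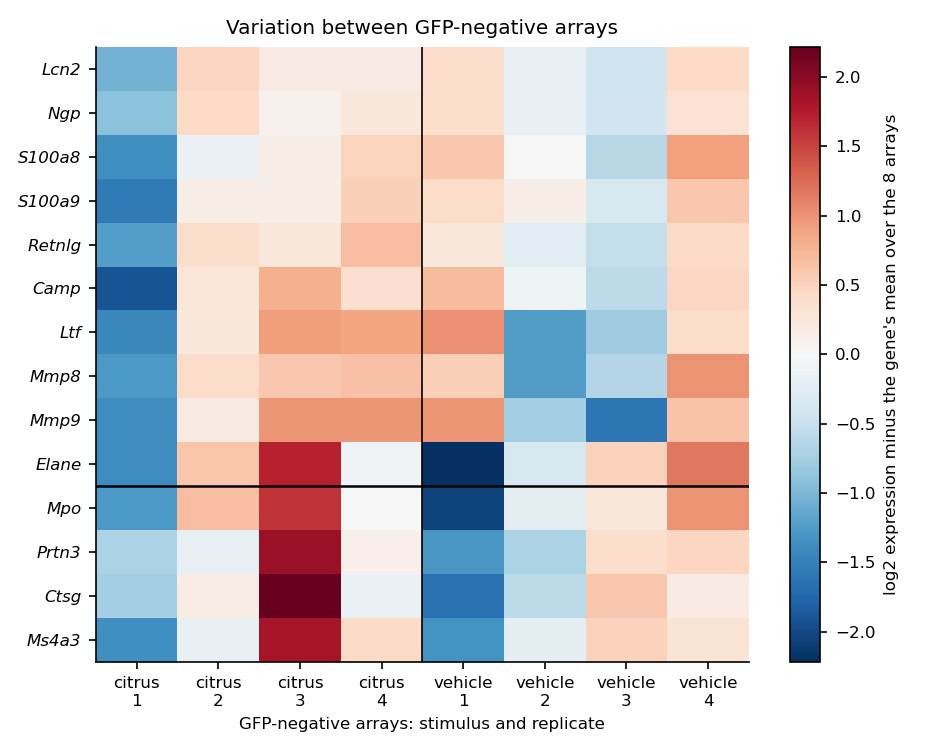
Log2 expression on the 8 GFP-negative arrays minus each gene's mean over them, as colour, for the 10 members and, under the horizontal line, for Mpo, Prtn3, Ctsg and Ms4a3. Columns are arrays by stimulus and replicate. Citrus array 1 is low for all 10 members, and vehicle array 1 is low for Elane and the 4 genes under the line but high for Ngp, Camp, Ltf and Mmp9.

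Likeness to the members' mean was measured by Pearson's r over the 16 arrays. Since the arrays form 2 separate clusters, one per gate, this measure mostly reflects the gates and is given with no test. The 6 genes most like the members were Ly6c1, Hp, Arhgdib, Ly6c2, S100a11 and Fn1, with r = 0.996 to 0.997. Ly6c1 and Ly6c2, surface proteins of monocytes and other blood cells, are near-identical copies and may share signal, and Fn1 encodes fibronectin. Over the 8 GFP-negative arrays alone r was 0.99 for Arhgdib, 0.93 for S100a11, 0.92 for Hp, 0.80 for Ly6c2, 0.79 for Fn1 and 0.77 for Ly6c1. A member's r with the mean of the other members over the same 8 arrays was 0.30 for Elane and 0.87 to 0.96 for the others.

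The next comparison asked whether odour exposure changed these genes. In GFP-negative cells, where the members are measurable, 0 of 10 passed the threshold between citrus and vehicle, against 0.0153% of all probe sets. The limma fit gave 0 of 10 at an unadjusted p under 0.05 as well, and no other tool was run. The arrays of citrus and vehicle overlapped for all 10 members. S100a8 averaged 16.08 ± 0.81 in citrus and 16.51 ± 0.67 in vehicle GFP-negative cells (SD, n = 4 each), a difference of −0.44 with a 95% interval from −1.50 to 0.63. S100a9 averaged 15.60 ± 0.93 in citrus and 15.99 ± 0.42 in vehicle, a difference of −0.39 (interval −1.41 to 0.63). For neither alarmin gene was a difference detectable between the stimuli. Elane averaged 12.63 ± 1.30 in citrus and 12.19 ± 1.46 in vehicle, a difference of 0.43 (interval −0.89 to 1.75). The fit used 1 spread for all 4 groups, and Elane varied less on GFP-positive arrays (SD 0.39 in citrus and 0.59 in vehicle). Its interval can therefore be too narrow for GFP-negative cells. Ngp averaged 18.46 ± 0.60 in citrus and 18.52 ± 0.39 in vehicle, a difference of −0.06 (interval −0.95 to 0.83). Over the 10 members the differences ran from −0.44 to 0.43 with a median of −0.01, 5 of them below 0, and adjusted p from 0.926 to 0.994. The 10 intervals all include 0, with their outermost ends at −1.50 for S100a8 and 1.75 for Elane. Camp, Ltf, Mmp8 and Mmp9 also varied less on GFP-positive than on GFP-negative arrays, so their intervals can be too narrow as well.

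In GFP-positive cells 0 of 10 members passed between citrus and vehicle, against 0.0204% of all probe sets, and 0 of 10 had an unadjusted p under 0.05. Differences ran from −0.65 for Ngp to 0.25 for Retnlg, with adjusted p = 0.999 for each, and 7 of 10 lay below 0. Nearly all of these values lie under background, so these differences are not measurable as levels in the cells. Ngp averaged 8.30 ± 0.72 in citrus and 8.96 ± 0.94 in vehicle GFP-positive cells (SD, n = 4 each), and its 2 arrays over background were both from vehicle. The effect of citrus on the difference between the gates was tested as an interaction. It passed for 0 of 10 members and for 0% of all probe sets, and 0 of 10 members had an unadjusted p under 0.05. The interaction ran from −0.80 for Elane to 0.49 for Camp, with intervals that reach from −2.66 to 1.75.

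**Figure D5:**
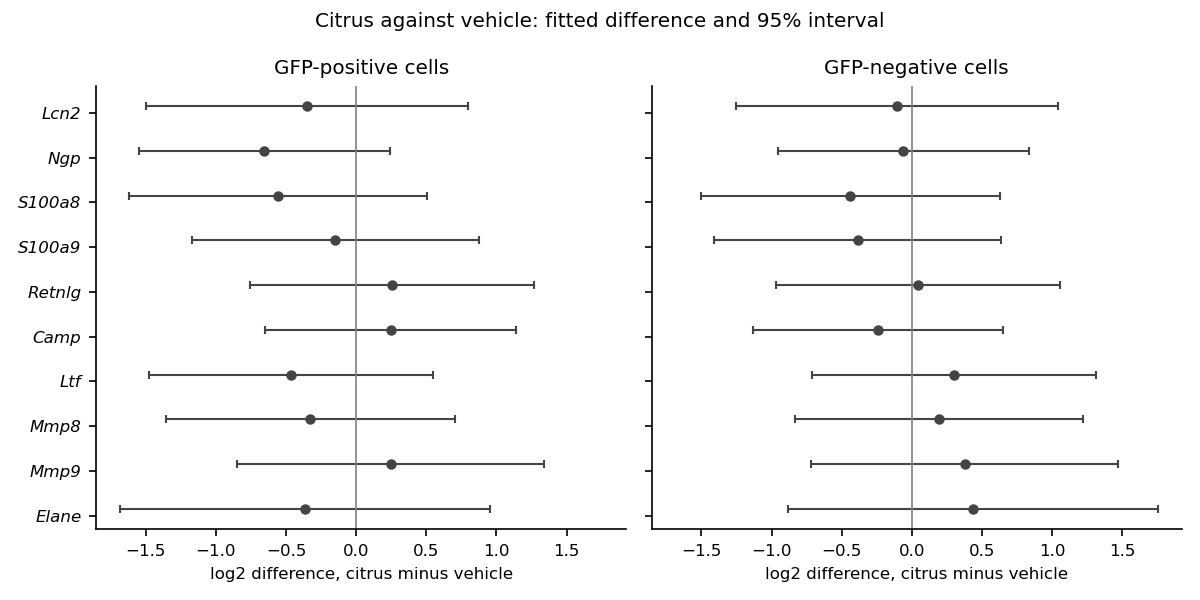
Fitted log2 difference between citrus and vehicle for each member, with 95% intervals, in GFP-positive cells (left) and GFP-negative cells (right). All 20 intervals include 0. GFP-negative differences lie between −0.44 and 0.43.

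Other genes of the neutrophil programme were compared between the stimuli as well. In GFP-negative cells 0 of the 9 genes of the primary granule list, 0 of 14 other specific and gelatinase granule genes, 0 of 16 surface receptors and 0 of 16 chemokines and cytokines passed between citrus and vehicle in the limma fit. At an unadjusted p under 0.05 stood 0, 0, 0 and 1 of them, the last being the chemokine gene Cxcl1, named after its value was seen. Cxcl1 averaged 3.82 in citrus and 4.32 in vehicle GFP-negative cells, under background on all 16 arrays. The median difference was 0.37 over the primary granule list and 0.07 over the other granule genes, against 0.01 over all probe sets.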

How the data were processed

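RNA of sorted cells was hybridised to 16 Clariom S mouse arrays, with biotinylated cRNA from 50 to 100 ng of total RNA, per the labels' protocols. The authors deposited log2 values of 28846 probe sets in 1 table. The submitters' processing notes name Affymetrix Expression Console as the tool, with no version, and the build is not given in the sources used. A label names SST-RMA, whose signal space transformation can stretch the log2 scale. Values were used as deposited. Of the probe sets, 19572 had 1 gene symbol in the platform annotation and were tested, 2634 had none and 6640 were controls, of which 5222 were negative controls. Their 95th percentile on each array served as the background. Arrays give signal and no read depth.

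Groups came from the labels, with n = 4 arrays each. In limma 3.58.1 (R 4.3.3, statmod 1.5.0) a fit with 1 mean per group over all 16 arrays was moderated by empirical Bayes, for 5 comparisons, two-sided. The Benjamini-Hochberg adjustment ran over the 19572 probe sets, with a threshold of 0.05. Differences carry the standard error of the fit, and intervals are 95%. The fit was also run on simulated data with independent noise and 1 spread per probe set for all groups. Unequal spreads between the gates and shared pools were not simulated. Arrays of both gates that share stimulus and number were treated as 1 pool of mice, since 24 mice make 8 pools of 3, although the labels do not say so outright. Deviations from the group means correlated at 0.075 to 0.275 within such a pool. The labels name 1 code for every array, and no batch was tested. Correlations used exact permutation (scipy 1.17.1, Python 3.11.15) and figures matplotlib 3.10.9.

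The members and the 18 gene lists were chosen with earlier results of these data known, and list counts leave out the members. Named genes were all members, S100a5 and Omp, up to 3 genes of a list with the largest change between the gates in vehicle past the threshold, and the 6 genes most like the members. Bpi, Cebpe, Cxcl1, Cxcl12, Prtn3, Ctsg and Ms4a3 were named after their values were seen.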

Additional observations from a re-analysis of the deposited data

Results flagged for a closer look

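Of 40 combinations of a member and a group, 1 was flagged because a single array stood far from the other 3. Mmp8 read 12.21 on the citrus GFP-negative array 1, and the nearest of the others read 13.89 and the farthest 14.13. The gap was 0.873 of the group's range, past the critical value of Dixon's test, which chance passes in about 1 of 20 groups. The other 9 members were also lowest on that array, without passing the critical value.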

How the results depend on the processing

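Each comparison was recomputed under 17 alternatives, or 16 for the interaction, which needs all groups. These were 2 replicate block fits, 2 ways of centring, array weights, another prior, 2 other sets of tested probe sets, only the groups compared, and leaving out each of the 8 pools. Between the gates 10 of 10 members were called in citrus and 10 of 10 in vehicle under all 17, and between the stimuli and for the interaction 0 of 10 in all. With the paired fit, that is the pool as a replicate block, fixed or random, the counts were likewise 10, 10, 0, 0 and 0, so it changed none of these calls. Gate differences stayed between −11.00 and −6.56 in citrus and between −10.77 and −6.02 in vehicle, with adjusted p of at most 3.81e-05. Citrus differences ranged from −0.72 to 0.97 in GFP-negative cells (lowest adjusted p = 0.697) and from −1.02 to 0.57 in GFP-positive cells (0.851). Among these uncalled values 22 of 170, 6 of 170 and, for the interaction, 12 of 160 changed sign. With the floor at the median of the negative controls the sizes ran from 6.86 to 10.54 in citrus and from 6.30 to 10.30 in vehicle; they equal the fitted difference where GFP-positive values lie over that median, as for Lcn2, and are then no bound. Counts over other gene lists moved more: tested only above background on 4 arrays, which leaves fewer genes, the lower granulocyte transcription factors were 1 and the lower monocyte and macrophage markers 4 in either stimulus. With arrays centred on mature neuron markers, 8 chemokines and cytokines were lower in citrus. Under the fixed replicate block 8 sustentacular markers were lower in citrus and 4 in vehicle. Signal at background in GFP-positive cells limits the size of every gate difference.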
